A study of Mus musculus with 2 samples.

Results

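Ras and mitogen-activated protein kinase (MAPK) pathway genes were examined in a list of TCF7 binding regions from T-cell acute lymphoblastic leukaemia (T-ALL) cells of the mouse. The 7 genes, Sos1, Rasgrp1, Nf1, Rasa2, Rps6ka3, Elk1 and Fos, were chosen by their peaks: each is the gene that the authors' table names as nearest to a TCF7 peak. Each of the 7 genes had 1 peak, which gave 7 of the 779 peaks in the list and 7 of its 754 nearest genes. Since the presence of a peak selected the genes, their peaks are described here and nothing was tested.

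TCF7, also called TCF1, is a T-cell DNA-binding factor of the TCF/LEF family through which beta-catenin acts. The study looked for the genes that it binds in leukaemia driven by Dlx5 and activated Akt2. Chromatin immunoprecipitation with sequencing (ChIP-seq) was done with an antibody to TCF1/TCF7, and 1 ChIP library was set against 1 library of input DNA. Both libraries came from T-ALL cells with Lck-Akt2 and Dlx5 transgenes, in which the Lck promoter drives expression in developing thymocytes, and no untransformed thymocytes, no cells lacking TCF7 and no control antibody entered this peak call. The cells were formaldehyde-fixed cultures of a single line from this model, called DP352 in the study, and GEO lists no replicate of either library. The deposited peak table is named as a merge, which the labels do not explain, and whether several runs or cultures were merged is unknown. A list of binding regions gives no transcript levels, and the identity of the cells could not be checked against marker genes.

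Ras is a membrane-bound switch that is on when it carries GTP and off when it carries GDP. Exchange factors such as Sos1 and Rasgrp1 load it with GTP, and GTPase-activating proteins such as Nf1 and Rasa2 turn it off. Active Ras passes the signal through the kinases Raf, Mek and Erk, and Erk then phosphorylates further kinases of the Rsk family and transcription factors such as Elk1, which with serum response factor switches on Fos. In T cells the pathway acts downstream of the T-cell receptor, where it takes part in the selection of thymocytes, and its genes are recurrently mutated in T-ALL.

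Peak strength is given in 3 ways. The summit fragments are the ChIP fragments that cover the highest point of a peak, with exact Poisson intervals at the 95% level for counting error only. The fold enrichment is the ratio of the scaled ChIP pileup to the local input background, each raised by 1, and the q-value of the peak caller is given as its -log10. Intervals of the fold enrichment take the background as fixed and leave out the counting error of the input. The list as a whole had a median of 113 summit fragments (28 to 631) and a median fold enrichment of 8.93 (2.54 to 61.8), and its lowest and highest -log10 q were 2.49 and 408. Regions under the threshold of the peak caller have no value, so that no value just outside the list can be given.

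Of the 7 peaks, that of Fos was the strongest at 29.5-fold, those of Elk1, Rasa2 and Rps6ka3 lay between 11.04-fold and 12.9-fold, and those of Nf1, Rasgrp1 and Sos1 lay between 5.03-fold and 7.61-fold. The median of the 7 was 11.04-fold and 110 fragments, beside 8.93-fold and 113 fragments over all peaks. Within 1000 bp of a transcription start site (TSS) of their own gene lay 5 of the 7 summits, and those of Sos1 and Rasa2 lay far upstream. Over all 475 peaks of the list with a summit within 1000 bp of a TSS, the medians were 12.7-fold and 187 fragments. Ranked by fold enrichment, Fos stood at 76 of 779 and Sos1 at 673, so that the genes covered most of the range of the list.

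**Figure D1:**
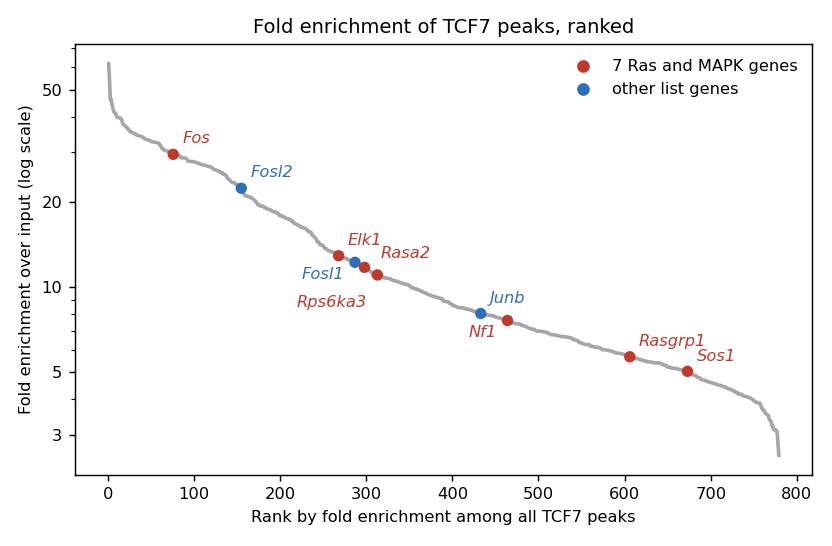
Fold enrichment over input (log scale) of all 779 TCF7 peaks against their rank, as a grey line, with the peaks of the 7 genes in red and those of 3 other genes of a wider pathway list in blue. Fos (29.5-fold) sits near the top of the list, and Sos1 (5.03-fold) is the lowest of the marked peaks.

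Of the exchange factors, Sos1, which the adaptor Grb2 brings to activated receptors, had the weakest of the 7 peaks. It held 46 fragments at the summit (95% interval 33.7 to 61.4) over a local input background of 3.97 scaled fragments, which gave 5.03-fold enrichment (3.74 to 6.64) and a -log10 q of 7.70. By its fragments it ranked 724 of 779. The peak, at chr17:80521677-80521836 of mm10 (GRCm38), is 160 bp long and intergenic, 41.3 kb upstream of the nearest TSS of Sos1, that of a retained-intron transcript, and 41.8 kb upstream of the protein-coding one. The nearest annotated TSS of any kind was that of an antisense transcript, AC131712.1, at 31.7 kb, and the nearest TSS of another protein-coding gene, Cdkl4, lay 42.0 kb away, so that Sos1 was nearer by less than 1 kb. Repeats cover 71.9% of the peak, beside a median of 8.52% over all peaks, and the GC content of the window of 100 bp on each side of the summit was 39.3%, the lowest of the 7. The sequence (plus strand) is shown because it is 1 of only 2 among the 7 with TCF/LEF letters within 100 bp of the summit; the capitals mark CTTTGTT, which lies 40 bp from the summit.
Sos1: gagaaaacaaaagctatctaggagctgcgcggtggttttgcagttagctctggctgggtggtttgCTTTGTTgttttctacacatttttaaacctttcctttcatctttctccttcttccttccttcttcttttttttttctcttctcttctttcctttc

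Rasgrp1 is the exchange factor that diacylglycerol activates after the T-cell receptor is engaged. Its peak, chr2:117342878-117343054, is 177 bp long and covers the outermost TSS of the gene, with the summit 38 bp inside that transcript, in the untranslated region. Other protein-coding transcripts of Rasgrp1 begin 86 and 254 bp downstream of the summit, outside the peak. The summit held 74 fragments (58.1 to 92.9) over a background of 6.0, which gave 5.66-fold (4.48 to 7.07) and a -log10 q of 14.2. The interval of its fragments overlapped that of Sos1. With 62.2% GC and an observed-to-expected CpG ratio of 1.08, the highest of the 7, and no repeats, it differed in composition from the Sos1 region. The part of the peak upstream of the outermost TSS, chr2:117343002-117343054, is printed on the minus strand, which is the strand of the gene, to show this CpG-rich start. None of the letters searched lie in it.
Rasgrp1: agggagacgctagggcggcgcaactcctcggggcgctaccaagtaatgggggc

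Of the GTPase-activating proteins, Nf1 is neurofibromin, a tumour suppressor. Its peak, chr11:79339323-79339554, lay just upstream of the gene, with the summit 235 bp before the outermost TSS, that of a processed transcript, and 334 bp before the nearest protein-coding one. It held 110 fragments (90.4 to 133) over a background of 6.68, the highest of the 7 backgrounds, and reached 7.61-fold (6.28 to 9.14) with a -log10 q of 29.0. The whole peak of 232 bp (plus strand) is printed because it holds TGACGTCA, the cyclic AMP response element (CRE), 54 bp from the summit. This 8-base palindrome, in capitals, was present within 100 bp of the summit in 0.899% of all 779 peaks and in 1.79% of 32851 RefSeq promoters of 300 bases. The promoters are longer than the windows, so that the 2 shares cannot be compared directly.
Nf1: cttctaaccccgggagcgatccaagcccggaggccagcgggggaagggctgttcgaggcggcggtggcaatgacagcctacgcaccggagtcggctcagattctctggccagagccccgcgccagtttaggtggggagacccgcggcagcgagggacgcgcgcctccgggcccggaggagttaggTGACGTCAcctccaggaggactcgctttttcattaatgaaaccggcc

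A further peak lay inside Nf1. At chr11:79461060-79461265, 121 kb into the gene and in an intron, 57 fragments (43.2 to 73.9) gave 5.13-fold enrichment and a -log10 q of 9.35. The authors' table assigned it to Gm11199, so that it is outside the 7 peaks. Among transcripts of protein-coding genes, the nearest TSS was that of processed transcripts of Nf1, 13033 bp upstream. It was singled out after the values were seen. Its fragment interval lay below that of the peak at the start of Nf1. Among the 78 genes of the pathway list, it was the only peak with its summit in the body of a listed gene but assigned to another gene.

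Rasa2, the other GTPase-activating protein, had its peak at chr9:96670065-96670342, intergenic and 38.6 kb upstream of the gene. The 278-bp peak held 133 fragments (111 to 158) over a background of 5.0 and reached 11.7-fold (9.86 to 13.9) with a -log10 q of 48.7. With the input backgrounds taken as fixed, it was higher in fold than the promoter peak of Nf1, while the intervals of their fragments overlapped. An antisense transcript, A930006L05Rik, starts 35.6 kb from the summit and Zbtb38 starts 49.3 kb from it, and the next peak on the chromosome was 1628 kb away. No repeat overlaps the peak, and its CpG ratio of 0.333 was, with the 0.292 of Sos1, one of the lowest 2 of the 7. The sequence (plus strand) is the other one with TCF/LEF letters within 100 bp; CTTTGTA, in capitals, lies 68 bp from the summit.
Rasa2: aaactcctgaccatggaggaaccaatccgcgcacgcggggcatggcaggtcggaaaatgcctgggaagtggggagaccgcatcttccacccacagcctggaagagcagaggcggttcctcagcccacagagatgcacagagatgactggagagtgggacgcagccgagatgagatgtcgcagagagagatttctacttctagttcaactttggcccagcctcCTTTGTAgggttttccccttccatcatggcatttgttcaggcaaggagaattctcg

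Rps6ka3 encodes Rsk2, a kinase that Erk activates. Its peak, chrX:159255294-159255505, is 212 bp long and lies in an intron, 45.1 kb downstream of the outermost start of the gene. Internal protein-coding transcripts of Rps6ka3 begin 377, 453, 520 and 721 bp downstream of the summit, so that the peak counted among the 5 near a TSS. At 73 fragments (57.2 to 91.8) it was close to Rasgrp1 with 74, but its fold enrichment was 11.04 (8.71 to 13.8) against 5.66. The local backgrounds behind these ratios were 2.54 and 6.0, and 2.54 was the lowest of the 7. The -log10 q was 27.2. Its sequence (plus strand) is printed whole because it lies at an internal start, where the authors' table gives only the distance to the outermost one, and no motif searched lies within it.
Rps6ka3: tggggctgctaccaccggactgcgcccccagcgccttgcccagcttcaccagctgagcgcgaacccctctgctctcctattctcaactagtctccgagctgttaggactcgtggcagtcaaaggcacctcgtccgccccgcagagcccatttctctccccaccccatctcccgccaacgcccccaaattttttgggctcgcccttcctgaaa

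Elk1, the factor that Erk phosphorylates to act at serum response elements, had a peak of 359 bp at chrX:20950249-20950607 that ends 1 bp short of the start of the gene. The summit lay 135 bp inside the transcript, in the untranslated region. It held 125 fragments (104 to 149) over a background of 4.13, and reached 12.9-fold (10.8 to 15.3) with a -log10 q of 49.3. The window around the summit had 73.1% GC, the highest of the 7. Another peak, assigned to Uxt, lay 11.9 kb away with 34 fragments and 5.99-fold, and this was the shortest distance to another peak among the 7. The 29 bases around the SP1/KLF letters GGGGCGGGG, at chrX:20950466-20950494 on the plus strand, are printed because these lie 7 bp from the summit. They were present within 100 bp of the summit in 5.13% of all peaks and in none of the other 6.
Elk1: gcagctccggGGGGCGGGGgctccatacg

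Fos, which with Jun proteins forms the AP-1 factor and is a classical early response gene of the Erk pathway, had the strongest peak. At chr12:85473537-85473918 it is 382 bp long and covers the TSS, with the summit 158 bp upstream. The summit held 396 fragments (358 to 437) over a background of 6.04, which gave 29.5-fold (26.7 to 32.5) and a -log10 q of 227. Its interval overlapped that of none of the other 6 genes, and its fragments were 2.98 times those of Rasa2 and 8.61 times those of Sos1. The background at Fos, 6.04, was close to the 6.0 at Rasgrp1, which had 74 fragments. The 300 bases of its promoter at chr12:85473567-85473866 (plus strand) are printed because of 2 stretches of letters there, marked in capitals. They are, in order, the CArG box, to which serum response factor binds together with Elk1, and TGACGT, the first 6 letters of the CRE palindrome TGACGTCA.
Fos: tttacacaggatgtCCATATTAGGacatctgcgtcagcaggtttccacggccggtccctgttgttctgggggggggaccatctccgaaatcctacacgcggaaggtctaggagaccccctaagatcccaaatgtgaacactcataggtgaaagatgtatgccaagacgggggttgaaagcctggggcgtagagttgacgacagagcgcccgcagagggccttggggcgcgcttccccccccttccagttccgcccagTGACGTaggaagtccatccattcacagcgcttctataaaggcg

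**Figure D2:**
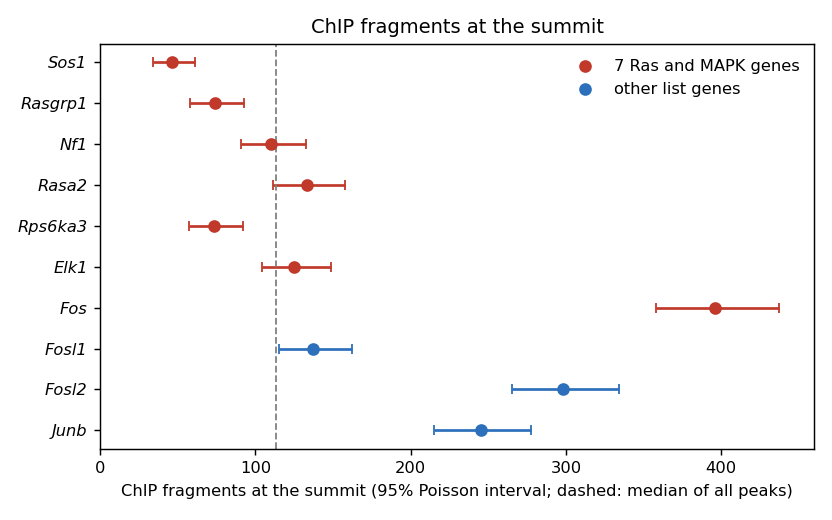
ChIP fragments at the summit (points) with exact 95% Poisson intervals for counting error (bars), for the 7 genes in red and for 3 other genes of the pathway list in blue; the dashed line is the median of all peaks, 113. The interval of Fos (358 to 437) overlaps no other, and those of Nf1, Rasa2 and Elk1 include the median.

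Between the 7 genes there were 21 pairs, and in 8 of them the fragment intervals overlapped. Rasa2, Elk1 and Nf1 overlapped one another, and so did Rasgrp1, Rps6ka3 and Sos1. Nf1 also overlapped Rasgrp1 and Rps6ka3. In the other pairs the intervals were apart: Fos lay above all 6, Rasa2 and Elk1 lay above Rasgrp1, Rps6ka3 and Sos1, and Nf1 lay above Sos1. These intervals treat the fragments as those of 1 library, and the spread between cultures was not measured.

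**Figure D3:**
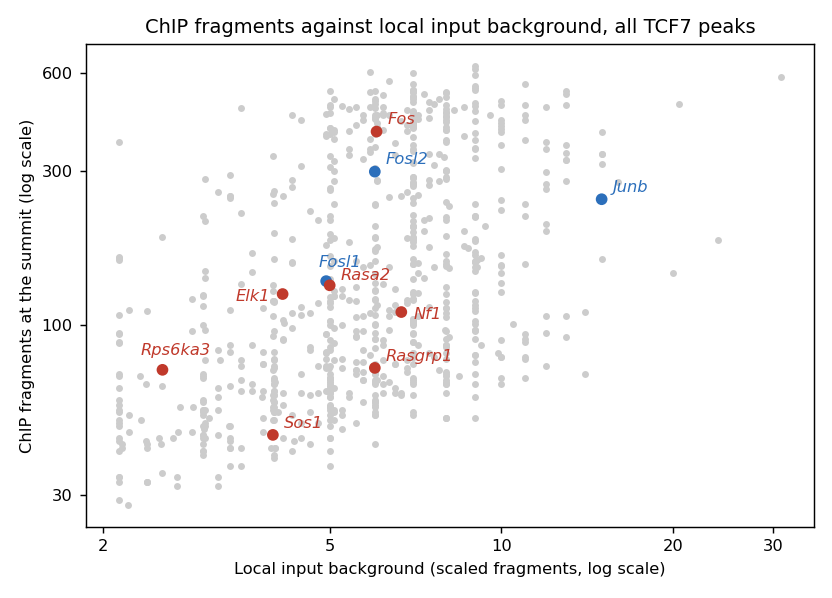
ChIP fragments at the summit against the local input background in scaled fragments (both log scales) for all 779 peaks in grey, the 7 genes in red and 3 other listed genes in blue. Rps6ka3 (background 2.54) and Rasgrp1 (6.0) have nearly the same fragments, and Junb lies far to the right at 15.

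The same fold enrichment could come from very different fragments. The peaks next to Fos in fold, assigned to Rita1 (29.8-fold) and Cct5 (29.5-fold), held 500 and 506 fragments against the 396 of Fos, over backgrounds of 7.79 and 8.0. Elk1, with 125 fragments, stood between Mlec with 395 over a background of 15 and Nectin3 with 97 over 3.02. Rasa2 stood between Akna with 154 fragments and Pisd-ps1 with 481, the latter over a background of 20.5. Rps6ka3, with 73 fragments, stood between Lars with 273 and 1700084C06Rik with 130, both over higher backgrounds. At the lower end the neighbours were closer in fragments: Nf1, with 110, stood between Gm15479 with 66 and Sfswap with 96, and Sos1, with 46, between Gm17354 with 56 and Fan1 with 50. Rasgrp1 shared its exact values, 74 fragments and 5.66-fold, with the peaks of Gm22672 and Ubac2.

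Elk1 and Rps6ka3 are on the X chromosome, where the median local background of the 31 peaks was 3.82, beside 6.0 for the 748 autosomal peaks. Their backgrounds, 4.13 and 2.54, and the 3.97 of Sos1 were the lowest 3 of the 7. The part of this in their fold enrichment was not tested. The median fold enrichment of the X peaks was 12.9, beside 8.87 for the autosomal peaks, and Elk1 stood at 12.9 and Rps6ka3 at 11.04.

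**Figure D4:**
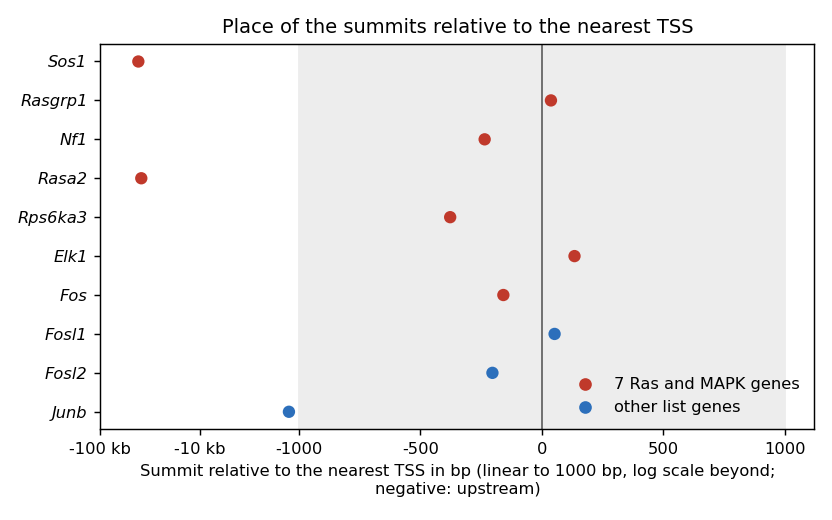
Distance in bp to the summit from the nearest TSS of any transcript of a protein-coding gene, negative for upstream, linear within 1000 bp (shaded) and on a log scale beyond, for the 7 genes in red and 3 other listed genes in blue. Of the 7 genes, 5 lie within the shaded range, between 377 bp upstream and 135 bp downstream, while Rasa2 and Sos1 lie 38.6 and 41.3 kb upstream.

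For place, 5 of 7 summits lay within 1000 bp of a start of any transcript from a protein-coding gene, against 475 of all 779 (61.0%), and all 5 lay within 500 bp. In each case the TSS was that of the assigned gene, and no second protein-coding gene began within 1000 bp. A TSS was covered by 2 of the 7 peaks, those of Fos and Rasgrp1, and by 37.7% of all peaks. The 2 summits over 20 kb from a TSS, at Rasa2 and Sos1, compare with 17.8% of all peaks. In composition, the median GC content of the 7 windows was 62.2% and that of all 779 was 54.7%, and the median CpG ratios were 0.651 and 0.512. Over the 475 peaks within 1000 bp of a TSS, the median GC content was 58.7% and the median CpG ratio 0.710. No repeat overlapped 5 of the 7 peaks, against 32.7% of all peaks. With 7 chosen peaks these shares are descriptions only.

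TCF/LEF letters were searched on both strands as CTTTG followed by any pair of A or T. They lay within 100 bp of the summit in 2 of the 7 peaks, beside 15.7% of all 779 windows. In the RefSeq promoters of 300 bases the share was 16.9%. These promoters are longer than the windows, so that their share cannot be compared directly. The 2 peaks were those of Sos1 and Rasa2, the distal ones, and none of the 5 near a TSS held the letters. The share among all peaks near a TSS was not computed, and nothing is read from this split. Within 50 bp of the summit Sos1 alone held the letters, beside 9.63% of all peaks. A stricter form had TCTTTGA before an A or T or CTTTGAT before a C or G. Within 100 bp this form was in none of the 7 and in 5.26% of all windows. It was in 3.84% of the RefSeq promoters, which are longer than the windows. No match says only that these letters are not in the window. Within 100 bp of the 7 summits there was no ETS site (CCGGAAG), which 4.88% of all windows held, no NFY site (CCAAT, 18.1%), no RUNX site (TGTGGT, 13.9%), and no run of 4 CAG repeats (8.73%). Nor was there an AP-1 site (TGACTCA or TGAGTCA, 2.57%), an NRF1 site (GCGCATGCG, 0.385%), a YY1 site (AAGATGGCG, 1.41%) or a ZBTB33 site (TCTCGCGAG, in 0 of all windows). Over the whole peak, Elk1 also held the E-box CACGTG, 126 bp from its summit, beside 7.57% of all peaks, and a RUNX site 106 bp from it, beside 19.5%. Rasa2 held an NFY site 134 bp from its summit, beside 29.7%. The letters TGACGT, which are also part of TGACGTCA and were added to the search after the values were seen, lay within 100 bp of the summits of Fos and Nf1 and in 4.24% of all windows.

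The CArG box of Fos lay 146 bp upstream of the summit and so outside the 100-bp window. Over whole peaks, a CArG box was present in 12 of 779 (1.54%), among them those of Fos and of Junb, another AP-1 gene. In the RefSeq promoters of 300 bases its share was 1.63%. Whole peaks were 159 to 1701 bp long, so that their share and that of the promoters cannot be compared directly. The peaks of Fos and Junb hold the same 10 letters. These were in 2 of 779 whole peaks (0.257%) and in 21 of 32851 RefSeq promoters (0.0639%). The letters were taken from the Fos peak, so that its own match was fixed beforehand, and nothing is read from these 2 shares. The 2 sites, chr12:85473566-85473605 and chr8:84980144-84980183, are set side by side on the plus strand with the box in capitals to show that the letters around them differ. In Junb the box lies 186 bp from the summit. A match of letters does not show that serum response factor or TCF7 was bound there.
Fos CArG: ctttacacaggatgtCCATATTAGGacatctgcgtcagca
Junb CArG: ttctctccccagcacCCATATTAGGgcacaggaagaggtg

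The 7 genes were then placed in a list of 78 genes of the Ras and Erk pathway, sorted by role. Of the 78, 10 (12.8%) were the nearest gene of a peak, beside 2.64% of 21938 protein-coding genes; the 7 are among these 10 because their peaks selected them, so that the share is not a result about the list. The other 3 were Fosl2, Fosl1 and Junb, which like Fos encode subunits of AP-1. Ras activators had a peak in 2 of 8 genes, Ras inhibitors in 2 of 16, Erk-activated kinases in 1 of 8 and Erk-responsive factors in 5 of 18. None of the 6 Ras GTPases, 8 adaptors, 9 Raf, Mek and Erk kinases or scaffolds and 5 Erk phosphatases was the nearest gene of a peak. For groups this small, counts of 0 are also what the share of 2.64% would give, and nothing is read from them.

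**Figure D5:**
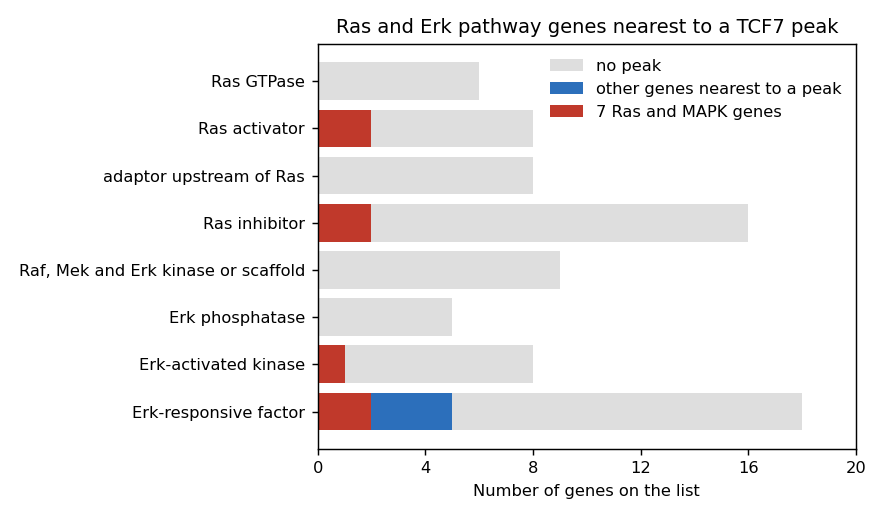
Number of genes on the pathway list by role (grey bars, from 0), with the genes nearest to a TCF7 peak in colour: red for the 7 genes, blue for the others. The Erk-responsive factors hold 5 of the 10 genes with a peak, and 4 of the 8 roles hold none.

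The peak of Fosl2, at chr5:32135423-32135824, had 298 fragments (265 to 334) and 22.4-fold enrichment, with its summit 203 bp upstream of the TSS. That of Fosl1, at chr19:5447624-5447872, had 137 fragments (115 to 162) and 12.2-fold, 53 bp inside the transcript. Junb, at chr8:84979778-84980238, had 245 fragments (215 to 278) but 8.06-fold, since its background of 15 ranked 7 of 779, and its summit lay 1260 bp upstream. The interval of Fos lay above all 3, and those of Fosl2 and Junb overlapped each other. Of these 4 AP-1 genes, Fos, Fosl1 and Fosl2 had the summit within 1000 bp of their own TSS.

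Other definitions gave other counts. With a -log10 q of at least 10, Sos1 dropped out, leaving 6 of the 7 genes and 9 of the 78, beside 2.32% of all protein-coding genes. With a fold enrichment of at least 10, Fos, Elk1, Rasa2 and Rps6ka3 were left, 4 of the 7 and 6 of the 78, beside 1.33%. By a TSS within 1000 bp of a summit the counts were 5 and 7, beside 2.52%, and within 5000 bp, which adds Junb, 5 and 8, beside 3.09%. By the gene of the nearest TSS they were 7 and 11, beside 3.36%. The added gene was Dab2ip, a Ras GTPase-activating protein whose TSS lay 73.2 kb from a peak of 4.06-fold.

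Of the 68 listed genes that were not the nearest gene of a peak, Shc1, an adaptor that links receptors to Grb2, alone had a TSS within 20 kb of a summit. That summit, 5.75 kb away, belonged to a peak of 4.06-fold assigned to Pygo2. The median distance of the 68 genes from the nearest summit was 452 kb. A gene without a listed peak is not shown to be unbound, since weaker regions are not in the list.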

How the data were processed

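ChIP-seq was made from 1 TCF7 ChIP library and 1 input library. The study's methods name mm10 for alignment and MACS2 for the peak call by the authors, and the submitters' processing notes list Bowtie2. Versions and settings: not given in the sources used here. Summit pileup, a coverage signal scaled to the smaller library, and fold enrichment, a ratio, were deposited by the authors, with p-values and q-values as -log10. The authors' nearest-gene table has a header out of step with its columns and was read by content.

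All pileups were multiples of 0.522, and dividing by this step gave whole fragments (within 0.011), 1.92 per scaled unit. The input background was solved from the fold enrichment, which adds 1 to both terms; it gave the deposited -log10 p back within 0.0029 in the 755 peaks with a finite value. Intervals are exact Poisson intervals at 95%, and those of the fold enrichment take the background as fixed.

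TSS, those of any transcript of a protein-coding gene, and places came from GENCODE vM21 (21938 protein-coding genes; 14 gene identifiers of the authors' table were not in it). Sequences came from the GRCm38 reference with samtools 1.23.1 and pysam 0.24.0, and promoters of 300 bases from RefSeq. GC and CpG were computed within 100 bp of the summit, and repeats over the peak from the soft-masked reference. In all, 14 motifs and 1 added later were searched on both strands. Scripts used Python 3.11.15, numpy 2.4.6, pandas 2.3.3 and scipy 1.17.1 and were checked on simulated data.

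The members, the pathway list and the motifs were chosen with earlier results of these data known. Named genes were the 7 members, protein-coding genes starting within 1000 bp of their summits, listed genes with a peak by any assignment or with a TSS within 20 kb of a summit, and the peaks next to each member by fold enrichment. Other genes, named as landmarks around a peak or in the closing observations, were picked after their values were seen. The 78 listed genes have no test, because the list was chosen with those results known. The other alternatives have none, because there is 1 library of each kind. The RNA-seq samples were not analysed here.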

Additional observations from a re-analysis of the deposited data

How the results depend on the processing

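Of 17 alternative settings, 11 left a count within 1.5 times its value. The count of 7 genes was fixed by their selection, and several settings only filter the same chosen peaks. An unchanged count is therefore no support for a result about these genes. Requiring a fold enrichment of at least 10 lowered the genes with a peak from 7 to 4 and those of the pathway list from 10 to 6. Counting only peaks that overlap a TSS lowered the 5 near a TSS to 2. TCF/LEF letters, in 2 of 7 windows of 100 bp on each side, were in 1 with 50 bp and in 0 with the stricter motif. They were in 0 of the 5 peaks near a TSS, a setting chosen after seeing the data and without a matching share of all such peaks. No paired analysis was possible because there was 1 ChIP and 1 input library, and for the same reason no replicate could be left out.

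Each value rests on 46 to 396 fragments of 1 library, and the intervals cover the counting error of the ChIP fragments only, not that of the input. Antibody specificity, differences between cultures and the depth of the input were not tested. The nearest gene of a peak is given by position alone.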

Other observations

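On chromosome 15 the median local input background of the 43 peaks was 8.0 and their median fold enrichment 5.77, while the medians of the background on the other 18 autosomes lay between 5.0 and 7.0; none of the 7 genes is on that chromosome. The peak nearest to that of Fos, 169 kb away, was assigned to Jdp2, a factor that pairs with AP-1 proteins, and had 49 fragments and 6.15-fold enrichment. Several pathway genes without a peak lay nearest to strong peaks of other genes: Fosb was 49.6 kb from the 35.0-fold peak of Ppp1r13l, Egr1 101 kb from the 39.3-fold peak of Fam53c, and Rasal1 36.1 kb from the 29.8-fold peak of Rita1. These genes were picked after their values were seen.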
